A study of Mus musculus with 4 samples.

Results

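The cyclin genes described here were followed in mouse embryonic stem cells after loss of Smarca4. That gene encodes BRG1, the motor subunit of many mSWI/SNF (BAF) complexes, which remodel chromatin. The 10 genes are 9 cyclins of the cell cycle (Ccnd1, Ccnd2, Ccnd3, Ccne1, Ccne2, Ccna2, Ccnb1, Ccnb2 and Ccnf) and Ccno, a cyclin of multiciliated cells, out of 24428 gene symbols in the count files. The 9 were taken by name and cell-cycle phase, but they and the gene lists below were chosen with earlier results of these data known. Counts of calls are therefore set beside the share of all genes, and no list was tested as a group. Ccno was selected on its log2 fold change between tamoxifen and ethanol, one of the largest increases in these same libraries, so its values are a description with no test. All 10 members passed the filter on low counts.

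The cells, of the 129SvEv background and at passage 15 to 20, carried the Smarca4-CreER (Smarca4flfl) alleles, meaning floxed Smarca4 and a Cre recombinase that tamoxifen activates. They grew in DMEM with 15% FBS and LIF. Both groups carried the same alleles and the same genotype label. For 2 libraries the cells had received ethanol and for 2 libraries 0.8 uM 4-hydroxytamoxifen, each for 48 h, and harvest was at 72 h. Poly(A) RNA was sequenced, and a tamoxifen-treated line without floxed alleles was not analysed here, so deletion, drug and active Cre cannot be told apart. No label says that libraries of a group came from separate cultures or clones, so the p-values reflect the spread between these libraries alone, which may be technical.

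Most cyclins are regulatory subunits of cyclin-dependent kinases (CDKs), but the product of Ccnf binds none. D cyclins act with CDK4 and CDK6 in G1 and start the phosphorylation of the retinoblastoma protein RB1. Cyclin E with CDK2 then drives entry into S phase, cyclin A2 acts through S and G2, and cyclins B1 and B2 with CDK1 drive mitosis, after which the B cyclins are degraded. Mouse embryonic stem cells in serum and LIF are known for a short G1, low D cyclin levels and high CDK2 activity. In bulk RNA, fewer cells in a phase and less transcript per cell cannot be told apart.

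Reads in genes ranged from 13458463 to 27086142 per library, and reads in no annotated gene made up 35.0 to 51.7% of counted reads, with the highest share in ethanol replicate 1. Smarca4 was at 328 and 409 CPM with ethanol and 68.5 and 68.7 CPM with tamoxifen, a log2 fold change of -2.43 ± 0.17 (SE; edgeR quasi-likelihood test, adjusted p = 1.08e-05); CPM here are counts scaled to a common library size with TMM factors. Exons that are not deleted also count toward this value. Of 14479 tested genes, 44.5% were called different, 21.5% higher and 22.9% lower with tamoxifen, at an adjusted p under 0.05. Without tamoxifen replicate 2, 1800 were higher, and without tamoxifen replicate 1 or 2, 2055 or 2088 were lower. Scaled to total counts alone, 61.8% of calls were higher against 48.4%, and the median over all genes shifted from -0.01 to 0.12 on the log2 scale. Fold changes moved with the GC content of transcripts. The median log2 fold change was -0.61 over the 2880 tested genes poorest in GC (up to 44.5%) and 0.60 over the 2880 richest (from 56.2%). Values given with GC correction come from a fit in which this trend was removed from each library. In that fit 20.1% of the 14479 tested genes were called, 1467 higher and 1448 lower. These are the background for the list counts given below with GC correction on all libraries, in place of 21.5 and 22.9%. Of 12 stem cell markers 2 were higher (Klf4 0.62 and Dppa5a 0.53) and 2 lower (Fgf4 -0.93 and Tdgf1 -0.52), and neither Dppa5a (0.54 and 0.52) nor Tdgf1 (-0.60 and -0.45) was called without tamoxifen replicate 1 or 2. With GC correction 3 were higher (Dppa5a 0.62, Nanog 0.68 and Zfp42 0.47) and 3 lower (Fgf4 -0.94, Utf1 -0.70 and Esrrb -0.53). Klf4 (0.35) and Tdgf1 (-0.18) were not called in that fit. The summed level of the 12 was 6075 and 6201 CPM with ethanol and 5935 and 6268 CPM with tamoxifen.

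Among the 9 cell-cycle cyclins, 4 were higher and 4 lower with tamoxifen and 1 was not called (edgeR quasi-likelihood test, adjusted p under 0.05; background 44.5% of all tested genes). The 3 D cyclins of G1 and the F-box cyclin gene Ccnf were the higher ones, and Ccne2, Ccna2, Ccnb1 and Ccnb2 the lower ones. Without tamoxifen replicate 2, 1 was higher and 2 were lower. The median log2 fold change of the 9 was -0.37, against -0.01 over all tested genes. For all 10 members the 2 tamoxifen libraries lay on one side of both ethanol libraries, as they did for 74.0% of all tested genes. With GC correction 2 of the 9 were higher (Ccnd1 and Ccnd2) and 1 was lower (Ccne1), so 6 of the 8 calls made as counted ended. Over all tested genes the share called went from 44.5 to 20.1% with that correction. No member changed direction with GC correction when all libraries were kept.

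**Figure D1:**
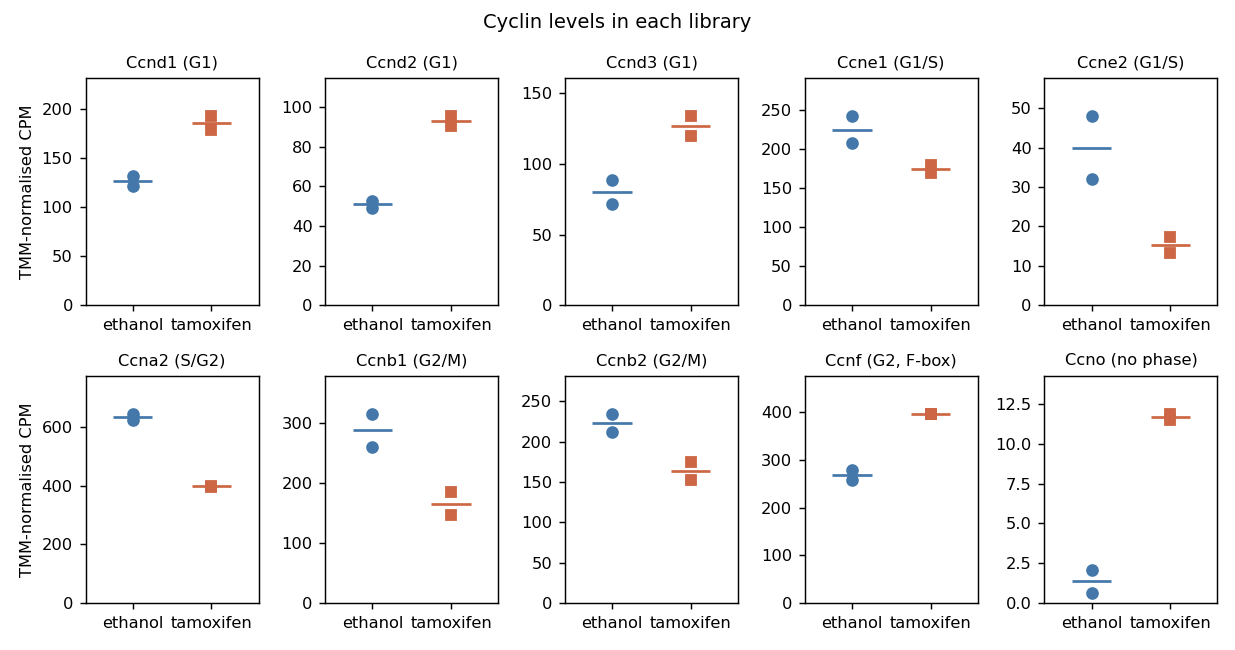
Each panel plots 1 cyclin in TMM-normalised CPM from 0, with 1 point per library (circles ethanol, squares tamoxifen) and a line at the group mean. The D cyclins, Ccnf and Ccno sit higher with tamoxifen and the E, A and B cyclins lower (Ccne1 without passing the test), with no overlap between groups in any panel; Ccno is at 0.614 and 2.08 CPM with ethanol and 11.5 and 11.9 CPM with tamoxifen.

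The promoters of Ccnb2 and Ccnf hold letter matches to the same 2 elements, while their transcripts moved in opposite directions as counted. Neither transcript was called with GC correction (-0.35 and 0.36). RefSeq promoters of GRCm38.p6 were found for 6 of the 10 members, and the 250 bases before the start were searched on both strands for the CCAAT box (CCAAT), the cell-cycle homology region or CHR (TTTGAA or TTCGAA) and an E2F element (TTTCCCGC, TTTGGCGC, TTTCGCGC or TTTGCCGC). None of these letter strings contains another. The windows of Ccnb2, Ccnf and Ccno are shown 5′ to 3′ on the gene's strand with CCAAT and CHR letters in capitals; Ccnb2 and Ccnf are the pair with both elements, and Ccno is the member with the largest difference.
Ccnb2 (chr9:70421555-70421804, minus strand): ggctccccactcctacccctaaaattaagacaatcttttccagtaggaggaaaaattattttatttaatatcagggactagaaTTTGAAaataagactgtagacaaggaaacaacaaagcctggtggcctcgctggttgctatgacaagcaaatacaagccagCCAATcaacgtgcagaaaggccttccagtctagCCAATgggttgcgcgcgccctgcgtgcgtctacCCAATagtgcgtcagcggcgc
Ccnf (chr17:24251410-24251659, minus strand): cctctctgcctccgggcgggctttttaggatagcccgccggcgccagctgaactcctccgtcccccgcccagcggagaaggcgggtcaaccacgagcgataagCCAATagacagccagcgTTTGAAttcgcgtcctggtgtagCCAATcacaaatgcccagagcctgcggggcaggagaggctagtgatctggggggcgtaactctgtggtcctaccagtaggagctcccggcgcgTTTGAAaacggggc
Ccno (chr13:112987552-112987801, plus strand): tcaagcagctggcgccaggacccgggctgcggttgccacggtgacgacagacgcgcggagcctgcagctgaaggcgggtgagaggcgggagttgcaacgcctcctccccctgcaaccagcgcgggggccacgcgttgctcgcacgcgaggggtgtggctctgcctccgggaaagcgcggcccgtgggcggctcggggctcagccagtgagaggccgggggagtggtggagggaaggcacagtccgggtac

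The Ccnb2 window held 3 CCAAT boxes, beginning 87, 54 and 21 bases before the start, and 1 CHR match at 167 bases. The Ccnf window held 2 CCAAT boxes at 147 and 107 bases and 2 CHR matches at 130 and 14 bases. The Ccnb1 window held 2 CCAAT boxes, at 99 and 67 bases, and no CHR match, and 1 of the 2 Ccnd3 windows held 1 CCAAT box. The windows of Ccno and Ccne1 held none of the 3 elements. Of all 32851 promoter windows of this length, 33.8% held a CCAAT match, 17.1% a CHR match and 1.86% an E2F match, and no member window held an E2F match. A match of letters is a description of the window and does not show a bound factor.

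Fibroblast markers, which feeder cells or differentiated cells would carry, moved with the D cyclins, Ccnf and Ccno: 16 of the 21 tested were higher and 0 lower (edgeR quasi-likelihood test; background 21.5 and 22.9%; 0 lower also at an unadjusted p under 0.05, in DESeq2 and in limma voom). Their summed level was 1776 and 1474 CPM with ethanol and 2614 and 2601 CPM with tamoxifen. With GC correction 16 were higher (background 1467 of 14479 tested genes). The collagen genes Col6a1, Col6a2, Col1a1 and Col5a1 rose 2.24-fold to 3.67-fold, the matrix gene Fbln2 2.81-fold and the smooth muscle actin gene Acta2 2.38-fold. Lum had no read in ethanol replicate 2 and 4 to 6 reads in the other libraries. The 5 tested markers not called were Thy1 (0.73), Dcn (0.63), Sparc (0.17), Pdgfra (0.11) and Twist1 (-0.14). With GC correction Dcn was called higher (1.16), and Twist1 was at -0.71 and not called. The part of these genes in the differences of the cyclins was not tested.

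The D cyclins were higher with tamoxifen. Ccnd2 had the largest difference among the cell-cycle cyclins that were higher: it was at 52.8 and 48.9 CPM with ethanol and 95.4 and 90.2 CPM with tamoxifen. The gap between the groups was larger than the spread within either. Ccnd2 rose 1.83-fold (log2 fold change 0.87 ± 0.14, SE, n = 2 per group; edgeR quasi-likelihood test, adjusted p = 7.01e-04), and with GC correction the difference was 1.099. The gene that overlaps it on the other strand, 9330179D12Rik, had 0 to 2 reads in a library. Ccnd2 was the one cell-cycle cyclin whose call held in each of the 18 alternatives run.

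Ccnd1, the D cyclin that growth factor and WNT signals induce in many tissues, was at 122 and 132 CPM with ethanol and 179 and 193 CPM with tamoxifen. Both tamoxifen libraries lay above both ethanol libraries. Ccnd1 rose 1.46-fold (log2 fold change 0.55 ± 0.15; edgeR quasi-likelihood test, adjusted p = 0.00942) and kept its call with GC correction (0.53). The call ended without tamoxifen replicate 2 (0.50, adjusted p = 0.102 in edgeR) and, with GC correction, without either tamoxifen library (0.59 and 0.48). Oraov1, which overlaps it on the opposite strand, was at 5.54 to 7.29 CPM and not called.

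Ccnd3 was at 72.0 and 88.4 CPM with ethanol and 119.5 and 134 CPM with tamoxifen. It rose 1.58-fold as counted (log2 fold change 0.66 ± 0.16; edgeR quasi-likelihood test, adjusted p = 0.00509). Its transcript has the highest GC content of the 10 members (58.4%), and with GC correction the difference was 0.12 ± 0.16 and not called (adjusted p = 0.635 in edgeR). The call as counted also ended without tamoxifen replicate 2 (0.58, adjusted p = 0.0520 in edgeR), and the sign turned with GC correction without ethanol replicate 1 (-0.083). Bysl, which lies on the opposite strand and overlaps Ccnd3, was at 43.5 and 44.5 CPM with ethanol and 65.1 and 74.98 CPM with tamoxifen. Since no strand setting is given, reads in the overlap cannot be assigned to either gene with certainty; its part in the result was not tested. A pseudogene, Ccnd3-ps, matched Ccnd3 at 96.3% over 881 bases, so its count is uncertain.

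Of the E cyclins, Ccne2 passed the test as counted and Ccne1 did not. Ccne2 was at 48.0 and 32.0 CPM with ethanol and 17.4 and 13.2 CPM with tamoxifen, from counts of 737, 833, 246 and 235. The ethanol libraries differed from each other by 1.501-fold, and both lay above the tamoxifen libraries. Ccne2 fell 2.61-fold as counted (log2 fold change -1.39 ± 0.22; edgeR quasi-likelihood test, adjusted p = 7.01e-04), the largest decrease of the 9. It also has the lowest GC content of the members (36.3%), and with GC correction the difference was -0.45 ± 0.27 and not called (adjusted p = 0.285 in edgeR). Ints8, on the opposite strand and overlapping Ccne2, was also lower as counted (90.8 and 113 against 66.4 and 80.6 CPM).

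Ccne1 was at 242 and 208 CPM with ethanol and 169 and 179 CPM with tamoxifen. The groups did not overlap, but the log2 fold change of -0.37 ± 0.15 missed the threshold (edgeR quasi-likelihood test, adjusted p = 0.0632). Its GC content of 52.7% lies above that of the members called lower, and GC correction made the difference larger (-0.51) and called (adjusted p = 0.0240 in edgeR). The corrected call ended without tamoxifen replicate 1 (-0.46) or replicate 2 (-0.55), and without ethanol replicate 2 the uncorrected difference was called (-0.47). Per kilobase of transcript, the level of Ccne1 was 7.58 and 9.77 times that of Ccne2 with ethanol and 14.6 and 20.4 times with tamoxifen, a ratio that carries the GC difference between these transcripts.

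Ccna2, the cyclin of S and G2, was the most abundant member, at 624 and 644 CPM with ethanol and 400.1 and 396 CPM with tamoxifen. Replicates lay close together in both groups. Ccna2 fell 1.59-fold (log2 fold change -0.67 ± 0.15; edgeR quasi-likelihood test, adjusted p = 0.00378). The difference was -0.38 and not called with GC correction (adjusted p = 0.0757 in edgeR), and as counted the call ended without tamoxifen replicate 2 (-0.66, adjusted p = 0.0542 in edgeR). Exosc9, which overlaps it on the opposite strand, was also lower as counted (45.5 and 69.9 against 35.0 and 39.96 CPM).

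The mitotic B cyclins were lower as well. Ccnb1 was at 259.9 and 315 CPM with ethanol and 147 and 185 CPM with tamoxifen. It fell 1.74-fold (log2 fold change -0.80 ± 0.17; edgeR quasi-likelihood test, adjusted p = 0.00292), and the difference was -0.38 and not called with GC correction (adjusted p = 0.108 in edgeR). Transcripts of 5 other gene models, among them Ccnb1-ps, matched Ccnb1 at 94.4 to 99.2% identity over 383 to 1294 bases, so its count is uncertain; none of the 5 has a row of its own under those names.

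Ccnb2 was at 234 and 212 CPM with ethanol and 175 and 153 CPM with tamoxifen. Its decrease was the smallest of the calls, 1.36-fold (log2 fold change -0.45 ± 0.15; edgeR quasi-likelihood test, adjusted p = 0.0312). The call ended with GC correction (-0.35), upper-quartile factors (-0.38) and total counts (-0.32). Leaving out a library ended it for ethanol replicate 1 (-0.37) and for each of the tamoxifen libraries (-0.55 and -0.35).

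Ccnf, an F-box protein that binds no CDK and marks other proteins for degradation in G2, moved against the A and B cyclins. It was at 259 and 279 CPM with ethanol and 396 and 397 CPM with tamoxifen. The tamoxifen libraries were nearly identical. Ccnf rose 1.47-fold (log2 fold change 0.56 ± 0.15; edgeR quasi-likelihood test, adjusted p = 0.00978). The call ended with GC correction (0.36, adjusted p = 0.0975 in edgeR), without tamoxifen replicate 1 (0.56, adjusted p = 0.0744) and without tamoxifen replicate 2 (0.56, adjusted p = 0.0789), where the size did not move.

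**Figure D2:**
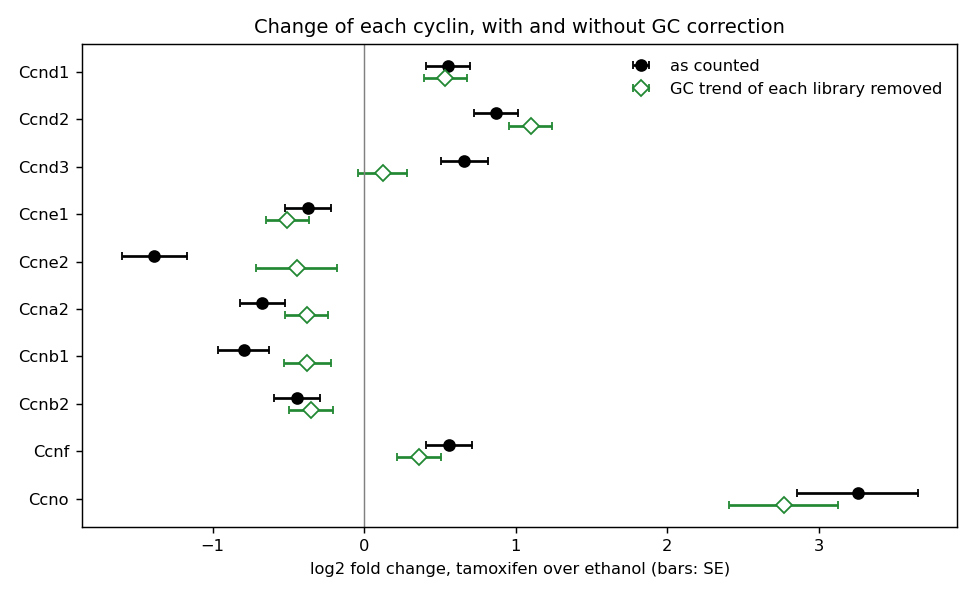
Points give the log2 fold change of each cyclin (tamoxifen over ethanol) with its SE, as counted (filled circles) and with the GC trend of each library removed (open diamonds). Ccnd1 and Ccnd2 stay near or above their uncorrected values (0.53 and 1.099), Ccnd3 and Ccne2 move most toward 0 (to 0.12 and -0.45), and Ccne1 moves away from 0 (to -0.51).

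GC content moved with the direction of change among these genes. The members that were lower as counted (Ccne2, Ccna2, Ccnb1 and Ccnb2) had transcripts of 36.3, 46.1, 44.2 and 49.3% GC, and the higher ones (Ccnd1, Ccnd2, Ccnd3 and Ccnf) had 50.9, 47.1, 58.4 and 53.5%. This order ran with the trend over all genes. Ccnd2 and Ccne1 stood against it. Ccnd2, at 47.1%, is poorer in GC than Ccnb2 but was higher, and Ccne1, at 52.7%, is richer than Ccnd1 but had a value below 0 (-0.37). Over all tested genes between 44.5 and 48.6% GC, which take in Ccnd2, the median log2 fold change was -0.26, and over those between 52.5 and 56.2%, which take in Ccne1, it was 0.29. These are also members whose difference grew with GC correction.

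**Figure D3:**
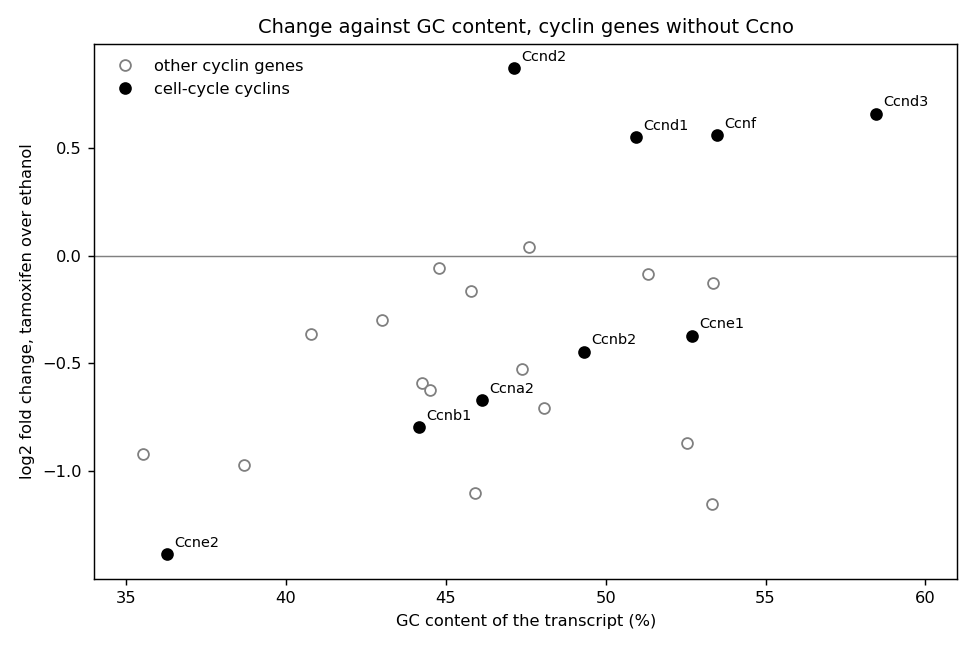
Each point is a cyclin gene, placed by the GC content of its longest coding transcript (x axis, %) and its log2 fold change with tamoxifen (y axis); filled points are the 9 cell-cycle cyclins and open points 16 other cyclin genes. Among the 9 cell-cycle cyclins, Ccne2 (36.3%, -1.39) has the lowest GC content and Ccnd3 (58.4%, 0.66) the highest, and Ccnd2 (47.1%, 0.87) lies above other cyclins of like GC content.

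Levels between genes were compared per kilobase, using the longest coding transcript of each gene, so an error in the transcript model shifts a gene in all libraries alike. With ethanol the order of mean CPM per kilobase was Ccna2 (214), Ccnb2 (146), Ccnb1 (115), Ccne1 (112), Ccnf (65.1), Ccnd3 (37.9), Ccnd1 (33.9), Ccne2 (13.3), Ccnd2 (8.03) and Ccno (0.720). The values of Ccnb1 and Ccne1 overlapped between libraries, as did those of Ccnd3 and Ccnd1. With tamoxifen the order was Ccna2 (134), Ccnb2 (107), Ccnf (95.8), Ccne1 (87.0), Ccnb1 (66.5), Ccnd3 (59.9), Ccnd1 (49.7), Ccnd2 (14.7), Ccno (6.23) and Ccne2 (5.09), and there the values of Ccnb1 and Ccnd3 overlapped. Ccnf went from place 5 to place 3, and Ccne2 from place 8 to place 10. These places rest on uncorrected levels and carry the GC trend. With GC correction the log2 fold changes of Ccnf and Ccne2 were 0.36 and -0.45, neither called.

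Summed per kilobase, the D cyclins were at 75.04 and 84.8 with ethanol and 119.5 and 129 with tamoxifen, while the B cyclins went from 258 and 265 to 173 and 174. The ratio of D to B cyclin level was therefore 0.291 and 0.320 with ethanol and 0.691 and 0.742 with tamoxifen. It is a ratio of sums over chosen members, was not tested, and carries the GC trend: with GC correction Ccnd3, Ccnb1 and Ccnb2 were at 0.12, -0.38 and -0.35 and not called. Within the D cyclins the shares of these uncorrected levels hardly moved. Ccnd2 made up 11.1 and 9.11% of the summed level with ethanol and 12.6 and 11.04% with tamoxifen. Ccnd1 and Ccnd3 each made up 39.9 to 49.3% in every library. The shares carry the GC trend too: with GC correction the log2 fold changes of Ccnd1, Ccnd2 and Ccnd3 were 0.53, 1.099 and 0.12. Shares were not computed with that correction.

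Ccno encodes cyclin O, which multiciliated cells need to make their many centrioles. It was the least abundant member with ethanol, with counts of 32 and 16, or 2.08 CPM (95% Poisson interval 1.43 to 2.94) and 0.614 CPM (0.351 to 0.998). The tamoxifen libraries held 168 and 205 reads, or 11.9 CPM (10.2 to 13.8) and 11.5 CPM (9.97 to 13.2); these intervals cover counting error only. The ethanol libraries differed from each other by 3.39-fold with intervals that do not overlap, whereas the tamoxifen libraries agreed within counting error. The log2 fold change was 3.26 ± 0.40, or 9.55-fold, and 2.77 with GC correction. It depended on which ethanol library was the reference: 4.24 without ethanol replicate 1 and 2.49 without ethanol replicate 2. Even with tamoxifen, Ccno per kilobase stood at 6.23 against 134 for Ccna2.

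Of the neighbours of Ccno on chromosome 13, 1 of 6 tested was higher and 1 lower (background 21.5 and 22.9%; 3 lower without ethanol replicate 1). In GENCODE gene order, Dhx29 precedes Ccno, and Mcidas, Cdc20b and Gpx8 follow it. Mcidas, the coactivator that starts the multiciliated programme, had 2 and 3 reads with ethanol and 9 and 5 with tamoxifen. It was too low for the filter, and without a filter its log2 fold change of 1.799 was not called (edgeR quasi-likelihood test, adjusted p = 0.0930). Cdc20b had 1 read in all, in tamoxifen replicate 2. The RNA helicase gene Dhx29 was at 91.5 and 101 CPM with ethanol and 79.6 and 72.5 CPM with tamoxifen (-0.34 ± 0.14, not called). Gpx8, which encodes a peroxidase of the endoplasmic reticulum, fell (-0.68 ± 0.17; edgeR quasi-likelihood test, adjusted p = 0.00730), and was not called with GC correction (-0.27) or without tamoxifen replicate 2 (-0.57). Plpp1, a lipid phosphatase gene on the other side of Skiv2l2, rose by 0.85 ± 0.17 (0.79 with GC correction, also called). Skiv2l2, Slc38a9 and Ddx4 had -0.28, -0.40 and -0.19 and were not called.

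**Figure D4:**
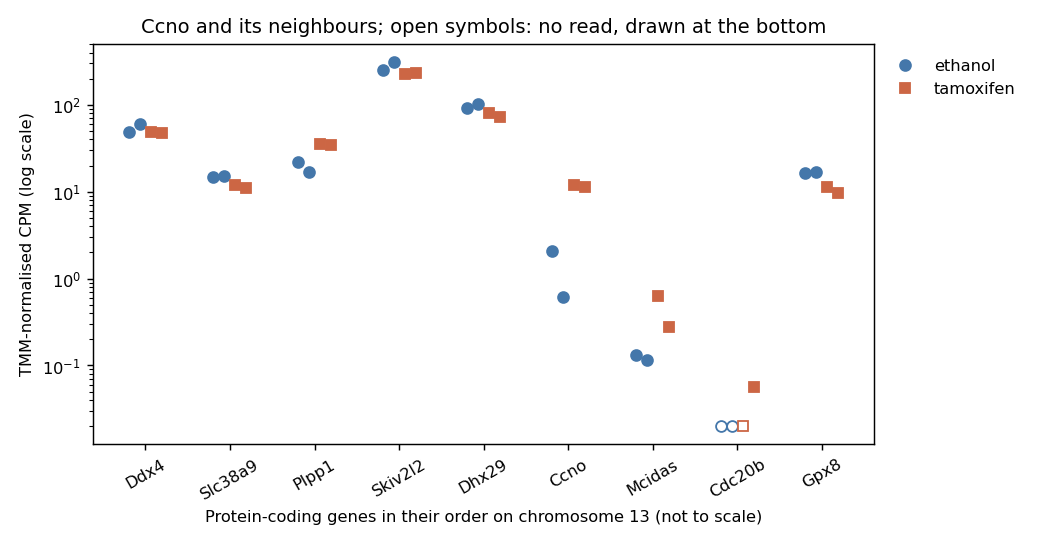
CPM of each library on a log axis for Ccno and 8 protein-coding neighbours in chromosome order (not to scale); circles are ethanol, squares tamoxifen, and open symbols at the bottom mark libraries with no read. Ccno, which was chosen for its difference in these libraries, lies between Dhx29 and Mcidas. That it differs more than its neighbours follows from that choice and is not a separate observation. Mcidas had 2 and 3 reads with ethanol and 9 and 5 with tamoxifen.

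Of 17 other listed genes of the multiciliated programme, the 12 with enough reads to test were not higher as a group. Mcidas, Gmnc, Cdc20b, Ccdc78 and Ccdc67 were too low to test, so the statement does not cover them. Of 12 tested, 2 were higher and 3 lower (background 21.5 and 22.9% of all tested genes), with a median log2 fold change of -0.35 against -0.01 over all genes. The lower count was 6 without ethanol replicate 2 and 1 without tamoxifen replicate 2, and the higher count 0 without tamoxifen replicate 1 and 1 without replicate 2 of either group. Foxj1, the master regulator of motile cilia, was at 7.36 and 9.60 CPM with ethanol and 7.15 and 7.06 CPM with tamoxifen (-0.27 ± 0.20, not called; -0.97 and called lower with GC correction). Dnaic1, a dynein arm component of motile cilia, fell 3.68-fold, from 10.7 and 7.22 CPM to 2.26 and 2.52 CPM (edgeR quasi-likelihood test, adjusted p = 2.44e-04; -1.94 with GC correction). Trp73, which encodes the p53 relative p73, rose by 0.73 ± 0.19 and Rfx2, a ciliary transcription factor gene, by 0.52 ± 0.16. Neither held with GC correction (0.30 and 0.00010) or without tamoxifen replicate 1 (0.65 and 0.45), and Rfx2 was not called without ethanol replicate 2 (0.34) or tamoxifen replicate 2 (0.59) either. Myb (-0.70 ± 0.16) and the centriole gene Stil (-0.53 ± 0.14) were lower and lost the call with GC correction (-0.46 and -0.16) and without tamoxifen replicate 2 (-0.56 for both); Stil lost it also without tamoxifen replicate 1 (-0.50). Foxn4, an inducer of the programme, had -0.33 ± 0.23 and was called lower with GC correction alone (-0.85). Rfx3, Plk4, Tekt1, Dnaic2 and Sass6 had -0.40 to 0.34 and were not called. Gmnc, Ccdc78 and Ccdc67 had 0 to 21 reads in a library and were not tested.

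The 5 tested genes whose centred log2 CPM over the 4 libraries lay nearest to Ccno were Lix1 (Euclidean distance 0.57), the homeobox genes Hoxd11 (0.72) and Nkx2-9 (1.12), the prestin gene Slc26a5 (0.998) and the T-box gene Tbx4 (1.13). Lix1 had 17 and 15 reads with ethanol and 112 and 131 with tamoxifen, and Hoxd11 had 27 and 8 against 78 and 93. In all 5, as in Ccno, ethanol replicate 1 held more reads than ethanol replicate 2, the deeper library. The genes were chosen for likeness to the Ccno profile, so this shared pattern is not a separate observation. All are of low abundance, and the mean level with tamoxifen ran from 2.74 CPM for Slc26a5 to 7.63 CPM for Lix1. Likeness over 4 libraries is a description of these libraries.

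The other cyclin genes, most of which act outside the cell-cycle engine, were lower or not called. Of 16 tested, 8 were lower and 0 higher as counted (background 22.9 and 21.5%; edgeR quasi-likelihood test, with 0 higher also at an unadjusted p under 0.05, in DESeq2 and in limma voom), with a median log2 fold change of -0.56. Ccng2, a cyclin associated with cell-cycle exit, fell 2.15-fold. Its level was 31.2 ± 5.57 CPM with ethanol and 14.6 ± 2.08 CPM with tamoxifen (SD, n = 2), and its difference after GC correction was -0.80, still called. Ccnjl, a cyclin J relative, fell 2.22-fold from 8.46 ± 0.837 to 3.83 ± 0.893 CPM (-1.34 with GC correction, called), and Ccni fell 1.63-fold (-0.53, called; not called without tamoxifen replicate 2, -0.62). Ccnh, a subunit of the CDK-activating kinase, and Ccnc, a subunit of the Mediator kinase module, fell 1.96-fold and 1.89-fold as counted, with transcripts of 38.7 and 35.5% GC. Neither was called with GC correction (-0.19 and 0.090, the latter turned in sign). Ccny fell 1.51-fold and was not called with GC correction (-0.18) or without tamoxifen replicate 1 (-0.54). With GC correction, 4 were lower and 0 higher, with a median of -0.18, and without either tamoxifen library 5 were lower as counted.

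Among CDKs and their regulators, 3 of 20 were higher and 4 lower (background 21.5 and 22.9%; 2 lower without tamoxifen replicate 1; 1 and 1 with GC correction). The kinase genes Cdk1 (-0.27 ± 0.14), Cdk2 (0.19 ± 0.14) and Cdk4 (0.11 ± 0.15) were not called. Cdk6, a partner of the D cyclins, was lower (-0.53 ± 0.15) and was not called with GC correction (-0.18). Mnat1 was the 1 higher with GC correction (0.68), while as counted it was at -0.16 and not called. Inhibitors moved both ways. Cdkn1c, which encodes p57, fell 2.15-fold from 44.5 ± 2.66 CPM with ethanol to 20.7 ± 0.913 CPM with tamoxifen (SD, n = 2; edgeR quasi-likelihood test, adjusted p = 2.61e-04), and the difference was larger with GC correction (-1.68). Cdkn1b, which encodes p27, fell 2.04-fold (-0.54 and not called with GC correction). Cdkn2a and Cdkn2b, whose products include the INK4 inhibitors of the kinases of the D cyclins, rose 2.01-fold and 1.94-fold, to 18.3 ± 2.79 and 8.69 ± 1.18 CPM. Neither was called with GC correction (0.37 and 0.59). Counts are per gene symbol, so the different products of 1 gene cannot be told apart. Cdkn1a, which encodes p21, was at 195 and 139 CPM with ethanol and 226 and 158 CPM with tamoxifen, so the groups overlapped. Pkmyt1, a kinase that inhibits CDK1, rose by 0.71 (-0.029 with GC correction; 0.61 and not called without tamoxifen replicate 2), and Cks2 fell by 0.59 (-0.22 with GC correction; -0.54 and not called without tamoxifen replicate 1).

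Of the RB, E2F and DREAM factors, which set the timing of cyclin transcription, 2 of 19 were higher and 7 lower (background 21.5 and 22.9%; 1 and 1 with GC correction). Mybl2, the MYB factor that joins the MuvB complex on promoters of G2 and mitotic genes, rose from 545 and 510 CPM to 1059 and 1049 CPM (log2 fold change 0.999 ± 0.15; edgeR quasi-likelihood test, adjusted p = 4.71e-04; 0.61 with GC correction, called). The repressive E2F gene E2f5 fell 1.97-fold, with 77.9 ± 7.71 CPM (SD, n = 2) in ethanol and 39.5 ± 4.13 CPM in tamoxifen, and was called after GC correction too (-0.73). The RB relative Rbl1, or p107, fell 1.84-fold, and the MuvB subunit genes Lin52 (-0.75) and Lin54 (-0.59) fell. None of these 3 was called with GC correction (-0.33, -0.34 and -0.014), and Lin54 was not called without tamoxifen replicate 1 (-0.51). E2f1, an activator of S phase genes, rose by 0.56 (0.038 and not called with GC correction; 0.51 and not called without tamoxifen replicate 1). Rb1 itself had -0.27 ± 0.16 and was not called. Foxm1, a factor for mitotic genes, had 0.39 ± 0.15 and missed the threshold (adjusted p = 0.0505 in edgeR). Of these factors 4 were lower with total counts or without tamoxifen replicate 2, and 5 were higher without ethanol replicate 1 and 1 without tamoxifen replicate 1.

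Genes that degrade cyclins or control that degradation were split, 6 of 17 higher and 5 lower (background 21.5 and 22.9%; 2 and 3 with GC correction). Without tamoxifen replicate 2, 3 were higher, and without tamoxifen replicate 1, 3 were lower. Fbxo5, which encodes the APC/C inhibitor EMI1, fell 1.87-fold, with 136 ± 18.2 CPM (SD, n = 2) in ethanol and 72.6 ± 4.97 CPM in tamoxifen, and was called after GC correction too (-0.54). Skp1a, a shared subunit of SCF ligases, fell 1.86-fold (-0.52, called), and the APC/C subunit genes Cdc27 and Cdc16 fell 1.83-fold and 1.52-fold (-0.17 and -0.41, not called). Cdc16 was not called without tamoxifen replicate 1 either (-0.56). Anapc11, the RING subunit of the APC/C, rose 1.73-fold (0.63, called), and Fbxo31, an F-box gene for cyclin D1 turnover, rose 1.90-fold (0.37, not called). Fbxw7, the F-box protein of cyclin E turnover, had 0.040 ± 0.16 and was not called.

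Genes of the G1/S programme were 5 of 18 higher and 3 lower, and those of the G2/M programme 0 of 18 higher and 9 lower (edgeR quasi-likelihood test; background 21.5 and 22.9%; for the second, 0 were higher also at an unadjusted p under 0.05, in DESeq2 and in limma voom, and 2 with total counts). Their median log2 fold changes were 0.17 and -0.37, and a test of the difference between the lists was not made. Without tamoxifen replicate 2, 2 of the G1/S genes were higher, and without tamoxifen replicate 1, 1 was lower. In the first list the replication helicase genes Mcm5 (0.69 ± 0.16; 0.61 with GC correction) and Gins2 (0.63 ± 0.15; 0.44) rose and kept the call with GC correction, and Slbp, the histone mRNA binding protein gene, fell (-0.72 ± 0.15; -0.49). Mcm5 was not called without tamoxifen replicate 2 (0.52). Ung (0.67), Mcm7 (0.53) and Mcm2 (0.55) rose and lost the call with GC correction (0.21, 0.34 and 0.20); Mcm7 and Mcm2 lost it also without tamoxifen replicate 2 (0.38 and 0.42). In the second list the kinetochore genes Ndc80 (-0.89 ± 0.16) and Cenpe (-0.96 ± 0.17), the mitotic motor genes Kif11 (-0.81 ± 0.16) and Kif23 (-0.64 ± 0.15), the checkpoint kinase gene Ttk (-0.73 ± 0.15) and the topoisomerase gene Top2a (-0.73 ± 0.17) fell. With GC correction only Ndc80 of all 18 was called (-0.46), and the median was -0.15. Without tamoxifen replicate 1, 4 of the 18 were lower, and Kif23 (-0.56) and Top2a (-0.59) were not among them. Among all list genes named as called with GC correction in the cyclin, CDK, DREAM, degradation, G1/S, G2/M, multiciliated and neighbour lists, Ccnjl, Cdkn1c, Dnaic1 and Plpp1 were called in that fit without any 1 library, and the others were not called without at least 1 tamoxifen library. Plk1, Aurka and Aurkb, the main mitotic kinase genes, were not called (0.26, -0.041 and 0.025).

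**Figure D5:**
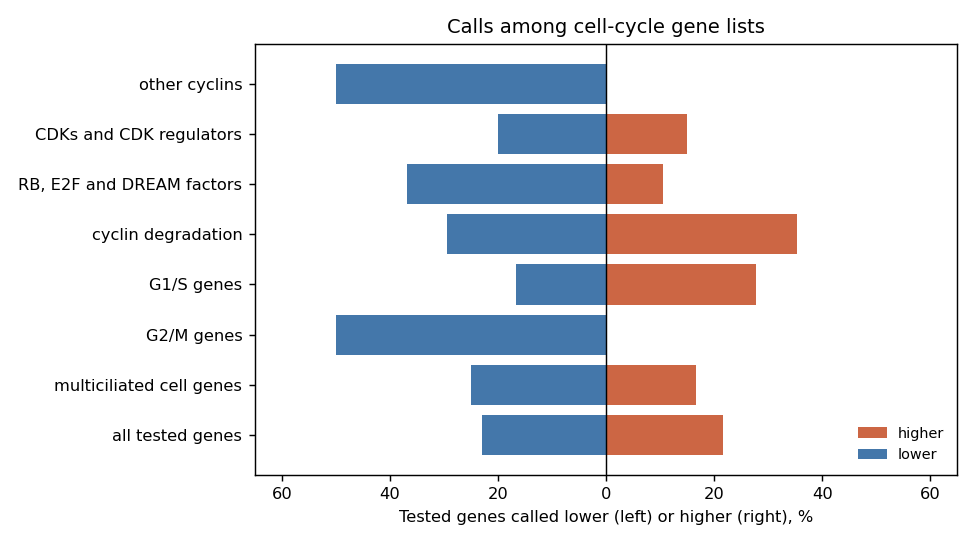
Bars give the percent of tested genes in each list that were called lower (left) or higher (right) with tamoxifen as counted, with all 14479 tested genes at the bottom. The other cyclins (8 of 16) and the G2/M genes (9 of 18) have calls on the lower side alone, whereas all tested genes have 21.5% higher and 22.9% lower.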

How the data were processed

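The authors deposited 1 table per library with raw counts of reads per gene symbol, followed by 5 summary lines in HTSeq's form, which entered neither library sizes nor tests; reads in no gene were 35.0 to 51.7% of counted reads and ambiguous reads 0.889 to 1.05%. The build was mm9, per the submitters' processing notes, which also name Bowtie 1.1.1, HTSeq, DESeq2 and CASAVA 1.8.2. What each did, the annotation used and whether counting used strand is not given in the sources used here.

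Tamoxifen was compared with ethanol, groups taken from the titles, with edgeR 4.0.16 in R 4.3.3 (quasi-likelihood test with robust fitting, filterByExpr, TMM scaling and no covariate besides group; Benjamini-Hochberg adjustment over 14479 genes, threshold 0.05). A standard error is the size of a log2 fold change divided by the square root of its F value. Chi-square per degree of freedom was 39.8 between the ethanol libraries and 10.9 between the tamoxifen libraries, above sampling noise. Each library was taken as 1 replicate, but such spread may be technical and does not show that libraries came from separate cultures. GC correction entered a loess of each library's deviation on transcript GC content (span 0.5) as an offset. Lengths and GC content are those of the longest coding transcript in GENCODE M21 (GRCm38); 364 of 24428 symbols had no match. Promoters and their coordinates are RefSeq's, of GRCm38.p6, and were joined to counts by symbol alone. The fit was also run on simulated counts that held no GC trend, so that run does not bear on the effect of the trend. Alternatives used DESeq2 1.42.0, limma 3.58.1 (voom), other scaling and filters, a replicate block and leaving out each library, with and without GC correction.

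The members and lists were chosen with earlier results of these data known. Genes named are the members, Smarca4, from each list up to 6 called genes by smallest adjusted p, the multiciliated genes and Ccno neighbours, and the 5 genes nearest to Ccno. Cdk1, Cdk2, Cdk4, Cdk6, Cdkn1a, Rb1, Foxm1, Fbxw7, Plk1, Aurka, Aurkb, Pdgfra, Sparc, Lum, Thy1, Dcn, Twist1 and the overlapping genes were named besides, after their values were seen. So were Mnat1, Nanog, Zfp42, Esrrb and Utf1. Of the 18 other cyclins listed, 17 are in the files.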

Additional observations from a re-analysis of the deposited data

How the results depend on the processing

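Of the 9 cell-cycle cyclins, 8 kept their direction in all 18 alternatives; Ccnd3 turned with GC correction without ethanol replicate 1 (-0.083). With GC correction 1467 genes were higher and 1448 lower. Members higher and lower were then 2 and 1, other cyclins lower 4, CDK regulators 1 and 1, RB, E2F and DREAM factors 1 and 1, degradation genes 2 and 3, G1/S genes 2 and 1, G2/M genes lower 1, multiciliated genes higher 0 (0 at an unadjusted p under 0.05; 2 uncorrected in DESeq2 and in limma voom) and Ccno neighbours lower 0 (0 at an unadjusted p under 0.05; 1 uncorrected in DESeq2 and in limma voom).

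Total counts gave 4 lower RB, E2F and DREAM factors, 1 lower G1/S gene, 2 higher G2/M genes and 1 lower stem cell marker, and upper-quartile factors gave 1 lower G1/S gene. The groups share replicate numbers, but no label says that a number marks a batch, and deviations of same-numbered libraries correlated at 0.234 across genes, from only 2 pairs. The replicate block gave 3919 genes higher and 4168 lower, with 4 members higher and 5 lower, 5 higher RB, E2F and DREAM factors, 1 higher G2/M gene, 6 lower multiciliated genes and 4 lower Ccno neighbours. The replicate block with GC correction gave 2576 genes higher and 2462 lower, 3 members higher and 5 lower (against 2 and 1 with GC correction alone), 2 higher and 5 lower other cyclins, 2 lower CDK regulators, 3 lower RB, E2F and DREAM factors, 3 higher degradation genes, 7 higher and 1 lower G1/S genes, 5 lower G2/M genes, 0 higher multiciliated genes, 0 lower Ccno neighbours, 1 lower fibroblast marker, and 4 higher and 5 lower stem cell markers.

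Leaving out 1 library gave 1800 to 3598 genes higher and 2055 to 3728 lower, members 1 to 4 higher and 2 to 5 lower, other cyclins 0 and 5 to 9, CDK regulators 2 to 4 and 2 to 5, RB, E2F and DREAM factors 1 to 5 and 4 to 8, degradation genes 3 to 6 and 3 to 6, G1/S genes 2 to 6 and 1 to 3, G2/M genes 0 to 1 and 4 to 9, multiciliated genes 0 to 2 and 1 to 6, Ccno neighbours 1 and 0 to 3, fibroblast markers 13 to 17 and 0 to 1, and stem cell markers 1 to 3 and 1 to 3. The lone library of a group was assumed to vary like the other group. With GC correction, genes higher were 1726 and 1751 without ethanol replicate 1 or 2 and 576 and 413 without tamoxifen replicate 1 or 2, and genes lower 1816, 1834, 673 and 443. Members were then 1 to 3 higher and 0 to 2 lower, other cyclins 0 to 1 and 1 to 4, CDK regulators 0 to 1 and 1 to 3, RB, E2F and DREAM factors 0 to 2 and 0 to 3, degradation genes 0 to 5 and 0 to 4, G1/S genes 0 to 2 and 0 to 1, G2/M genes 0 and 0 to 3, multiciliated genes 0 and 1 to 5, Ccno neighbours 1 and 0, fibroblast markers 17, 13, 10 and 9 higher and 0 to 1 lower, and stem cell markers 0 to 4 and 1 to 5.

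Signs also turned for some single genes with GC correction. Ccnc was at 0.090, at 0.093 with the block, and at 0.210, 0.067 and 0.098 without ethanol replicate 2, tamoxifen replicate 1 and tamoxifen replicate 2. Pkmyt1 was at -0.029, at -0.023 with the block, and at -0.16 and -0.10 without replicate 2 of either group. Without 1 library E2f1 was at -0.093 and -0.031, Lin54 at 0.027 and 0.038, Rfx2 at -0.12 and -0.083, Cntd1 at 0.11 and Ccnt1 at 0.47. With the block Ccnt1 was at 0.32 and Ccng1 at 0.28. The cause was not tested beyond the GC correction itself. Few reads limit Ccno, Mcidas and other genes of low count.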

Other observations

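Spread within the ethanol pair was uneven among cyclin genes. Ccnk, which encodes the cyclin partner of the transcriptional kinases CDK12 and CDK13, was at 368 CPM in ethanol replicate 1 and 200.5 CPM in ethanol replicate 2, a ratio of 1.83, as large as the fold change of Ccnd2 between treatments. The tamoxifen libraries were at 288 and 231 CPM, between the ethanol values, and the log2 fold change was -0.13 ± 0.27 and not called (edgeR quasi-likelihood test, adjusted p = 0.726). Without ethanol replicate 2 it was called lower (-0.49). Among the cyclin genes tested, the ratio within the ethanol pair was larger for Ccno alone (3.39), whereas within the tamoxifen pair the largest was that of Ccnjl (1.40). Ccng1, a p53-responsive cyclin gene as abundant as Ccna2 in CPM, was at 629 and 670.2 CPM with ethanol and 498 and 513 CPM with tamoxifen (-0.36 ± 0.15, adjusted p = 0.0680 in edgeR), and its sign turned with GC correction (0.28).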
